A study of Bos taurus with 18 samples.

Results

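The chondroitin and dermatan sulfotransferases are the Golgi enzymes that place sulfate groups on chondroitin sulfate and dermatan sulfate chains. The group described here comprised 8 of the 16989 genes counted: CHST15, CHST11, CHST12, CHST13, CHST3, CHST7, CHST14 and UST. They were taken by gene symbol in all 18 libraries, and all 8 symbols were present. CHST15 heads the group, chosen by its read counts in these clones, which had stood out in an earlier regression on the matrix the clones later made, and the other members are its family. The matrix measurements are not analysed here. The spread of CHST15 over the clones is therefore given as a description, with no test.

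Chondroitin sulfate is a chain of alternating glucuronic acid and N-acetylgalactosamine, attached to core proteins such as aggrecan, and its negatively charged sulfates draw water into cartilage. Dermatan sulfate is the same chain after an epimerase has turned some glucuronic acid into iduronic acid. Where each sulfate sits is set by the sulfotransferases, each of which takes sulfate from the donor PAPS and transfers it to a particular hydroxyl group.

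The libraries were made from poly-adenylated RNA of bovine mesenchymal stem cells (MSCs), multipotent cells isolated from the bone marrow of juvenile animals. Each of 17 clones (A to Q) was a colony grown from a single cell, and 1 library came from a heterogeneous, uncloned population (Het). All cells were undifferentiated at passage 1, in monolayer on plastic, in basal medium of DMEM with serum and antibiotics, and none had received TGFβ when RNA was taken. The study asked whether transcript levels in such undifferentiated clones foretell how much cartilage-like matrix they make. Each clone was sequenced once, so a difference between clones has no replicate beyond its counting error, and which animals gave which clones is not stated in the sources used here. The heterogeneous population likewise had no replicate.

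Reads on genes ranged from 11484812 to 18458157 per clone (median 14193790), with 16092501 in the heterogeneous library. Levels are given in CPM, the reads of a gene relative to all reads on genes, scaled by the TMM method, and intervals are exact 95% Poisson intervals of the reads, which cover counting error only. Of 8 mesenchymal markers, THY1 (at least 212.8 CPM), ENG (136.7), NT5E (268.5), CD44 (173.7), PDGFRB (173.7), COL1A1 and COL1A2 were present in every clone, whereas VCAM1 had 0 to 47 reads. Clones C and O stood apart as a pair. Across 9689 genes their counts differed by 5.36 in chi-square per gene, against 24.6 for the next closest of the 153 pairs of libraries (E and F) and a median of 136.9. That is above the value near 1 that sampling noise alone would give. The series has no labelled repeat preparation of a colony, so the value such repeats would give is not known. Whether C and O are separate colonies is not settled by these values. The labels name them as separate clones and they were counted as such, so each number of 17 clones assumes it. Results of the members that change without them are given both ways. For other genes this holds only where it is stated. An exact 0 in these files needs care. PGK1, a glycolytic gene of every cell, was listed at 0 in all 18 libraries, and GAPDH had between 1 and 12 reads.

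The 4-O-sulfotransferases CHST11, CHST12 and CHST13 add sulfate to the fourth carbon of N-acetylgalactosamine in chondroitin. CHST11 had 6.79 CPM in the lowest clone (H, 115 reads), a median of 12.6 CPM and 43.1 CPM in the highest (O, 715 reads). Clone C, with 41.0 CPM, was next to O, and the following clone, G, had 18.7 CPM. The interval of C began at 37.8 CPM and that of G ended at 21.0 CPM, the only break in the order of clones. All other neighbours in that order had overlapping intervals.

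CHST12, the second chondroitin 4-O-sulfotransferase, ranged less widely, from 15.7 CPM in clone I through a median of 20.1 to 41.4 in clone O. Clones C (35.0 CPM) and P (29.5 CPM) followed. The intervals of C and O did not overlap for this gene, O being the higher, whereas those of C and P did. CHST13, the third of these enzymes, was barely detected, with 2 to 26 reads in a clone. Its level ran from 0.123 CPM in clone L through a median of 0.650 to 1.89 in clone J. No neighbours in its order were separated by their intervals, and the lowest clone lay under the 3 reads taken here as the detection floor, which correspond to 0.1625 to 0.2612 CPM of unscaled depth.

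CHST3 and CHST7 are the chondroitin 6-O-sulfotransferases, which sulfate the sixth carbon of N-acetylgalactosamine. CHST3 had 10.97 CPM in clone K, a median of 17.7 CPM and 30.6 CPM in clone O. Clone C reached 29.9 CPM and clone G 22.3 CPM, and once more only C and O were set off from the other clones. CHST7 was listed at 0 reads in every library. With genes such as PGK1 also listed at 0, its 0 is not read as absence of the transcript.

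CHST14, the dermatan 4-O-sulfotransferase, acts next to iduronic acid. Its reads were the most numerous in the family, 487 to 1446 per clone, a number that also depends on transcript length. The level was 35.1 CPM in clone N, 41.5 CPM at the median and 87.2 CPM in clone O. Clone C had 80.8 CPM and clone L, the next, 58.2 CPM, with a break between the intervals of L and C. UST, which sulfates the second carbon of the uronic acid, had 25 to 81 reads in a clone. It ranged from 2.18 CPM in clone J through 2.96 at the median to 4.56 in clone P, and the intervals of all its neighbours overlapped.

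CHST15 adds a second sulfate, on the sixth carbon, to N-acetylgalactosamine that already bears one on the fourth, which makes the disulfated E-type unit. Its order of clones was unlike that of CHST11, CHST12, CHST3 and CHST14. The lowest clones were J (4.65 CPM, 64 reads) and A (5.25 CPM, 58 reads), the median was 13.2 CPM, and the highest were F (28.3 CPM), G (27.3 CPM) and I (21.8 CPM). Clones F and G formed the top of the order, above a break between I and G, and a second break lay between B at 14.4 CPM and K at 19.4 CPM. Clones C (9.91 CPM) and O (10.6 CPM), the highest for 4 other members, were below the median for CHST15, as they were for the barely detected CHST13.

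**Figure D1:**
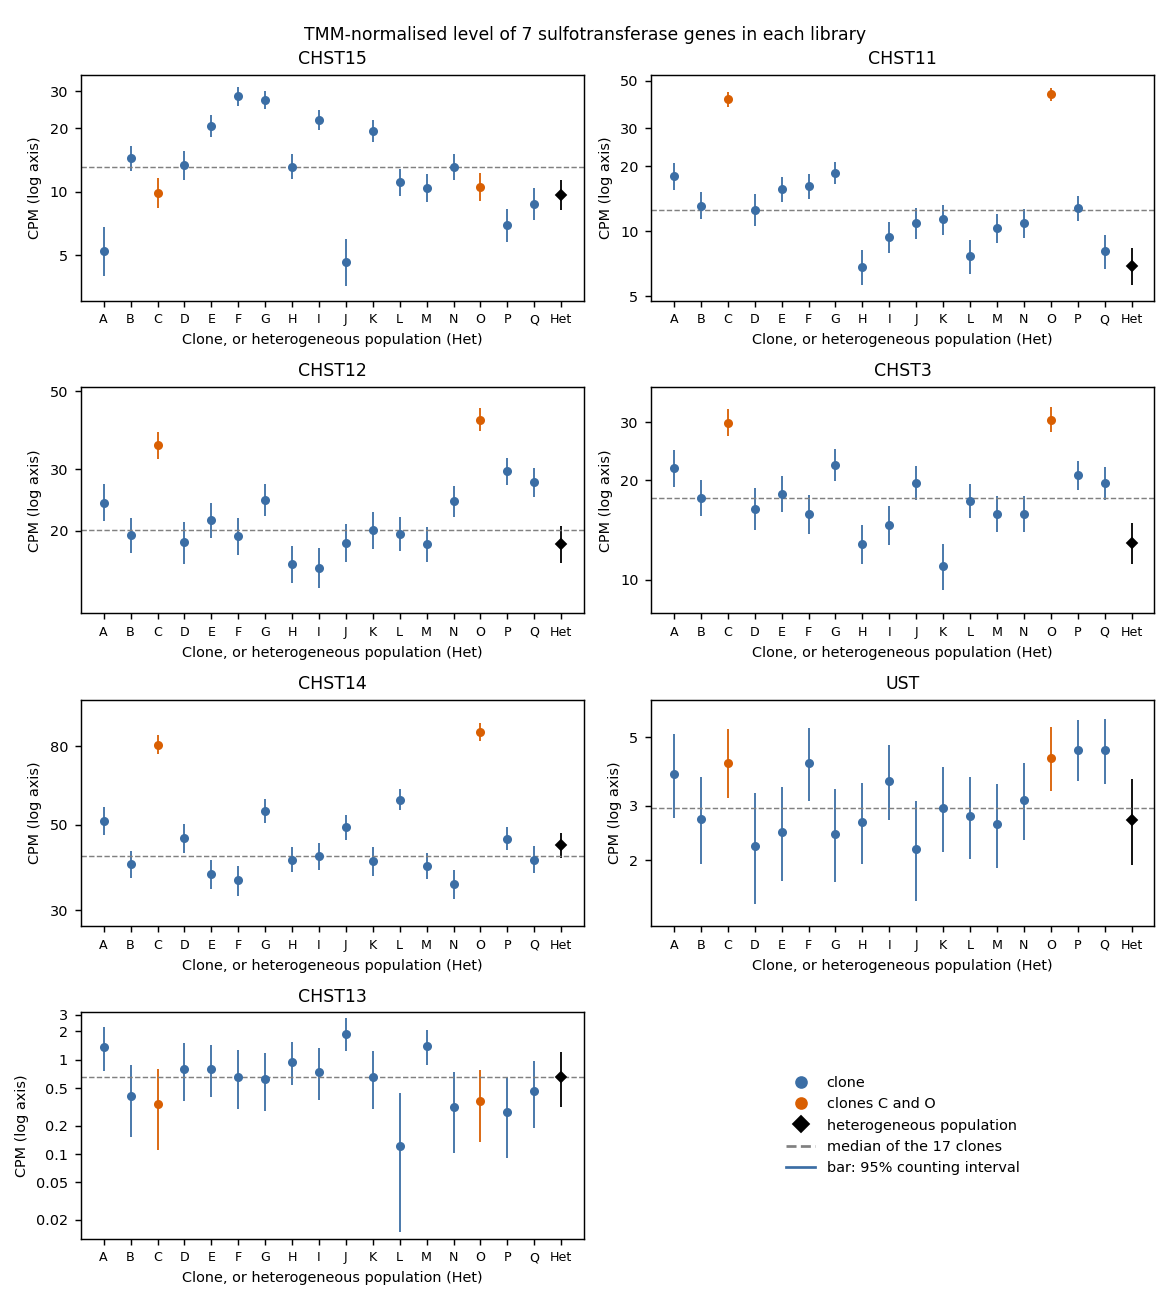
Level of each detected sulfotransferase gene (CPM, log axis, a range of its own in each panel) in the 17 clones and the heterogeneous population, with 95% counting intervals and the median of the clones as a dashed line. Clones C and O, in orange, are the 2 highest points for CHST11, CHST12, CHST3 and CHST14, but lie below the dashed line for CHST15 and CHST13.

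On the log2 scale (with 0.25 CPM added), the standard deviation over the 17 clones was 0.74 for CHST15, 0.73 for CHST11, 0.66 for CHST13, 0.38 for CHST12, CHST3 and CHST14 alike, and 0.34 for UST. The median of all 11244 genes tested over clones was 0.32. CHST15 exceeded 86.9% of those genes and CHST11 86.6%, whereas UST exceeded 54.6%. Counting error alone, reckoned without the added 0.25 CPM, would give a standard deviation of 0.12 for CHST15, 0.11 for CHST11 and 0.22 for UST. For CHST13 it would give 0.54. At the low level of CHST13 the added 0.25 CPM narrows the observed spread, so its 2 values are on unlike scales and were not compared. Without clones C and O the standard deviation of CHST11 was 0.43, that of CHST14 0.22, that of CHST12 0.26 and that of CHST3 0.28, while CHST15 kept 0.78.

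Clones C and O were the 2 highest clones for CHST11, CHST12, CHST3 and CHST14, that is for 4 of the 7 detected members, and this was the case for 9.14% of the 11244 tested genes. The mean of C and O was 3.71 times the median of the other 15 clones for CHST11, 2.07 times for CHST14, 1.95 times for CHST12 and 1.75 times for CHST3. The same quotient was 1.52 for UST, where clones P and Q were higher still, and 0.777 for CHST15. For CHST13 it was 0.529, on 5 reads in C and 6 in O. The clones were singled out after their values were seen, and no test is attached to these quotients.

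The balance between the 6-O and 4-O enzymes was described by the log2 ratio of CHST3 to CHST11 reads, which needs no scaling between libraries. It does not show which transcript was the more abundant, since transcript lengths were not used. The ratio was -0.50 in clone O and -0.45 in clone C, the lowest, 0.43 at the median and 1.29 in clone Q, the highest. Both genes were high in C and O, CHST11 more so, whereas clone Q and clone L (1.18) combined a low CHST11 with a CHST3 level near the median. In the heterogeneous population it was 0.90, above 14 of the 17 clones. With the reads of CHST11, CHST12 and CHST13 summed, CHST3 being the only detected 6-O gene, the log2 ratio of 6-O to 4-O reads went from -1.55 in clone K to -0.66 in clone L. The heterogeneous population, at -1.01, was then close to the median of -0.98.

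**Figure D2:**
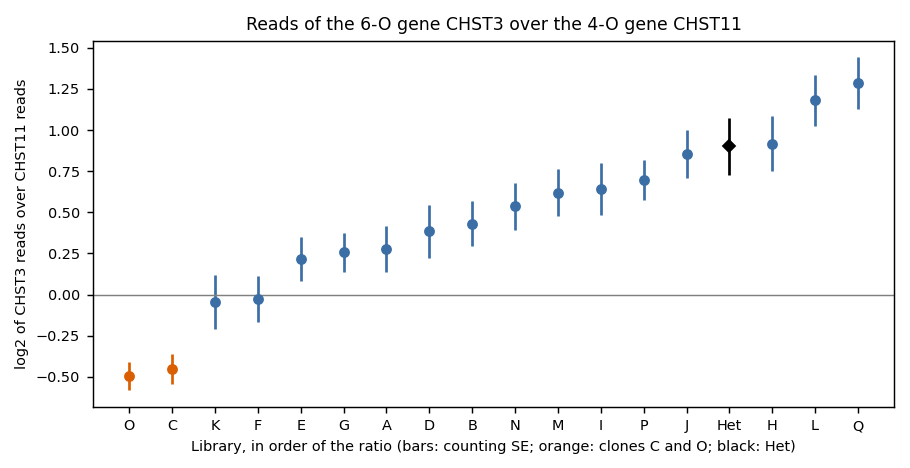
Log2 ratio of CHST3 reads to CHST11 reads in each library, in increasing order, with the counting standard error as bars. Clones O (-0.50) and C (-0.45) are lowest and clone Q (1.29) highest, and the heterogeneous population (0.90, black) lies in the upper end of the range.

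Whether cloning itself went along with other levels was asked by setting the heterogeneous population against the clones. CHST11 had 6.90 CPM in the heterogeneous library, below 16 of the 17 clones, and CHST3 12.9 CPM, below 15 of them. CHST15 (9.65 CPM), CHST12 (18.3 CPM) and UST (2.69 CPM) were in the lower part of the clones' range, CHST14 (44.3 CPM) and CHST13 (0.657 CPM, 10 reads) in its middle. Every member thus lay within the range of the clones.

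In the fit by edgeR's quasi-likelihood test with Benjamini-Hochberg adjustment, 0 of the 7 members tested were called at an adjusted p under 0.05, with 1.25% of 11878 genes called. The largest difference was that of CHST11, at -1.18 log2 units (standard error 0.87, adjusted p = 0.737). CHST3 was at -0.55 (standard error 0.40, adjusted p = 0.737) and CHST15 at -0.54 (standard error 0.75, adjusted p = 0.869). The other 4 were between -0.34 and -0.11. An unadjusted p under 0.05 was reached by 0 members, against 7.75% of genes, and DESeq2 and limma voom also called 0 members. With 1 library on a side, differences of the size of these standard errors could not be resolved. The single heterogeneous library is assumed in this fit to vary as the clones do.

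The heterogeneous library also carried transcripts of another cell type. The 20 macrophage markers summed to 304.4 CPM in it against 15.3 to 89.7 CPM in the clones, 18 of them were above every clone (9.64% of all genes tested were), and ITGAM and CYBB were at 0 throughout. Fewer cells of a kind and less RNA per cell cannot be told apart in such bulk libraries, and the part of these transcripts in the values of the sulfotransferases was not tested.

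The other members were next compared with CHST15 over the 17 clones, each gene's level being regressed on the log2 level of CHST15. None of the 6 was called (0.00889% of 11243 genes were), none had an unadjusted p under 0.05 (14.4% of genes did) and DESeq2 and limma voom also called 0. The slopes, in log2 units per log2 unit of CHST15, were -0.10 for CHST11 (standard error 0.27, adjusted p = 0.902), -0.20 for CHST3 (standard error 0.12, adjusted p = 0.478) and -0.36 for CHST13 (standard error 0.27, adjusted p = 0.582). Those of CHST12 and CHST14 were both -0.18, and that of UST was -0.10. All 6 slopes were below 0 with every clone included, but without clones C and O that of CHST11 was 0.11.

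The gene called was MID1, which encodes a microtubule-associated ubiquitin ligase. MID1 ranged from 22.2 CPM in clone P through a median of 36.1 to 70.0 in clone K, with a slope on CHST15 of 0.62 (standard error 0.09, adjusted p = 0.0387). The adjusted p ranged from 0.0208 to 0.131 when 1 clone at a time was left out, being above 0.05 without C, E, F, H, I, J, K, P or Q, and it was 0.0621 without C and O together. Ranked by Pearson's r with CHST15 over the 17 clones, the 5 genes most like it were MID1 (0.87), THOC2 (0.86), UTP15 (0.85), TRMT6 (0.85) and OPA1 (0.84). THOC2 belongs to the mRNA export complex THO, UTP15 and TRMT6 act in ribosomal and transfer RNA maturation, and OPA1 in mitochondrial fusion. The 5 most opposed were CUL7 (-0.87), TAF6 (-0.86), DGCR2 (-0.86), DHX34 (-0.85) and SKIV2L (-0.84). These coefficients describe the extremes of 11243 genes, and no sulfotransferase was near them: CHST11, at -0.005, ranked 5886 from the top and CHST3, at -0.38, ranked 9703.

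Aggrecan (ACAN), the main chondroitin sulfate proteoglycan of cartilage, gave the second comparison. It had 18.4 CPM in clone H, a median of 130.5 CPM and 2667 CPM in clone N, and the clones were widely spaced. Clones O (1363 CPM), Q (1302 CPM) and C (1202 CPM) followed N. Regressed on the log2 level of ACAN, 1 of the 7 members was called, CHST12, with 5.35% of 11243 genes called in either direction and 3.18% called with a positive slope. CHST12 rose by 0.15 log2 units per log2 unit of ACAN (standard error 0.03, adjusted p = 0.00645). Cell type markers moved with ACAN as well. Of 7 chondrocyte markers tested, 5 were called higher, HAPLN1 (slope 0.62), COL2A1 (0.73), COL9A2 (1.09), COMP (0.71) and SOX9 (0.29). The adipocyte genes PPARG (-0.41) and CEBPA (-0.28), 2 of 6 adipocyte markers tested, and PDGFRB (-0.15), 1 of 8 mesenchymal markers, were called lower. The adipocyte list was split, as ADIPOQ (0.33), FABP4 (0.35) and LPL (0.10) had positive slopes and PLIN1 was at -0.02, all uncalled. Of the other lists, 0 of 5 osteoblast, 0 of 5 macrophage and 0 of 3 endothelial markers were called. The part of these markers in the value of CHST12 was not tested.

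The call on CHST12 was retained whichever clone was left out, the adjusted p ranging from 0.00526 to 0.0251. Without clones C and O the slope was 0.098 (standard error 0.028, adjusted p = 0.0433, with 7.42% of genes called), so it was smaller but still called. Over the 17 clones Pearson's r between log2 ACAN and log2 CHST12 was 0.78 (permutation p = 0.0003) and Spearman's rho 0.73 (permutation p = 0.00161), and r was 0.80 without N and O, the clones farthest from the median of ACAN. Over the 15 clones other than C and O, r was 0.72 (permutation p = 0.00247). The relations with ACAN were 7 of 28 computed among the members and ACAN. Clones P and Q, with high ACAN, were the next highest in CHST12, and H and I, among the lowest in ACAN, were the lowest in CHST12. Other clones departed from this order. Clone N, the highest in ACAN, had 24.3 CPM of CHST12, below clone G with 24.5 CPM. Clone E, the next lowest in ACAN after H, had 21.4 CPM, above the median of 20.1 CPM.

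The remaining members did not pass the test on ACAN. The slope of CHST11 was 0.20 (adjusted p = 0.140), that of CHST3 0.10 (adjusted p = 0.118), that of CHST14 0.097 (adjusted p = 0.166) and that of UST 0.095 (adjusted p = 0.184). The values for CHST11 and CHST14 rested on clones C and O, without which they were -0.024 and 0.0016, and CHST3 had 0.037. The slope of CHST15 was -0.14 (standard error 0.08, adjusted p = 0.307), and that of CHST13 was -0.27 (standard error 0.10, adjusted p = 0.105). Over all clones the other well-counted members had positive slopes, but without C and O that of CHST11 was below 0 as well. CHST15 was chosen by an earlier regression on later matrix, with which the paper reports a weak negative association of aggrecan. The slope of CHST15 on ACAN may therefore not be independent of that choice. An unadjusted p under 0.05 was found for 6 of the 7 members, against 21.6% of genes. Without C and O, or with both counted as 1, it was found for 2 members, CHST12 and CHST13, against 24.2% and 19.99% of genes. CHST13, the least counted member, also went with the share of reads outside genes (r = -0.64, permutation p = 0.00504, with r = -0.52 without L and N). The other 13 of these 14 relations, of the members with depth and with that share, had an r between -0.26 and 0.22 over the 17 clones. Without the 2 clones farthest from the median, CHST15 had an r of 0.43 with the share of reads outside genes and CHST13 an r of -0.29 with depth.

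**Figure D3:**
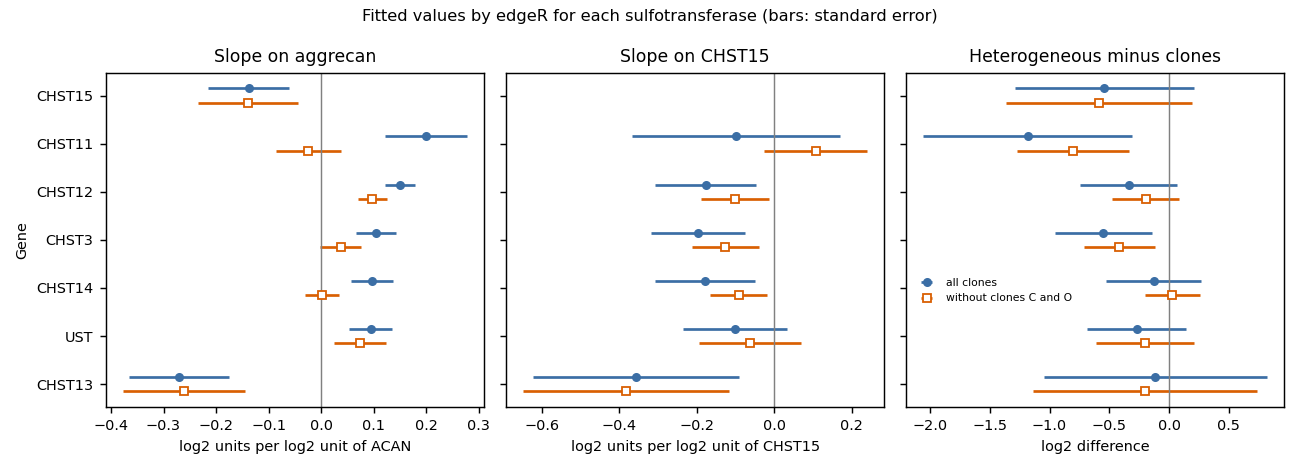
Fitted slope of each member on ACAN (left) and on CHST15 (middle) over clones, and fitted log2 difference of the heterogeneous population from the clones (right), with standard errors as bars, for all clones (filled circles) and without clones C and O (open squares). CHST12 on ACAN (0.15) is the value called, and the point of CHST11 moves from 0.20 to -0.024 when C and O are left out.

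The members were also set against each other. When the level of CHST11 was the regressor, CHST12, CHST3 and CHST14 were called, 3 of 6 members, with 3.64% of 11346 genes called. Their slopes were 0.39, 0.40 and 0.37 with adjusted p of 0.0187, 0.0105 and 0.0237. The same 4 genes called one another in the fits on CHST12 (3 members, 4.2% of genes), on CHST3 (3 members, 7.36% of genes) and on CHST14 (3 members, 31.3% of genes). All those slopes were positive. CHST15 and CHST13 were called in none of the 4 fits, nor was UST, except with library totals. There the slope of UST on CHST12 was 0.62 (adjusted p = 0.0411), with 1796 of 11338 genes called. The fits on CHST13 and UST by edgeR called 0 members and 0.0% of genes, with 2377 and 703 genes at an unadjusted p under 0.05.

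None of these mutual calls was retained when clones C and O were left out. With both left out edgeR called 0 members in each of the 4 fits, with 0.0% of genes called on CHST11, 0.292% on CHST12, 0.0% on CHST3 and 10.4% on CHST14. CHST3 and CHST12 on each other and CHST11 on CHST3 then had an unadjusted p under 0.05, as did CHST3 on CHST14. That made 1 of 6 members on CHST12 (11.4% of genes), 2 on CHST3 (5.26%), 1 on CHST14 (26.4%) and 0 on CHST11 (10.1%). The smallest adjusted p among the 4 genes was 0.186, for CHST3 in the fit on CHST14. The slope of CHST14 on CHST11 then went from 0.37 to 0.032 and that of CHST12 on CHST14 from 0.70 to 0.16. Other slopes moved less, that of CHST3 on CHST12 from 0.81 to 0.66, on CHST14 from 0.78 to 0.63 and on CHST11 from 0.40 to 0.30. With C and O counted as 1, CHST11 and CHST3 were still called on CHST12 (adjusted p = 0.0454 and 0.0446), with 64 of 11328 genes called. On CHST14, the members CHST11, CHST12 and CHST3 were called (adjusted p = 0.0122, 0.0467 and 0.00813), with 2258 of 11492 genes called. On CHST11 and on CHST3, 0 members were called, with 47 and 35 genes called. As C and O were the 2 highest clones on all these genes, no coefficient over all 17 clones is given. Within the other 15 clones r was 0.61 between CHST12 and CHST3 (permutation p = 0.0142, rho = 0.57 with permutation p = 0.0278). It was 0.49 between CHST3 and CHST14 (permutation p = 0.0642), 0.47 between CHST11 and CHST3 (permutation p = 0.0758) and 0.35 between CHST11 and CHST12 (permutation p = 0.197). CHST14 had an r of 0.053 with CHST11 and 0.13 with CHST12. After adjustment over the genes tested, none of these relations was called.

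**Figure D4:**
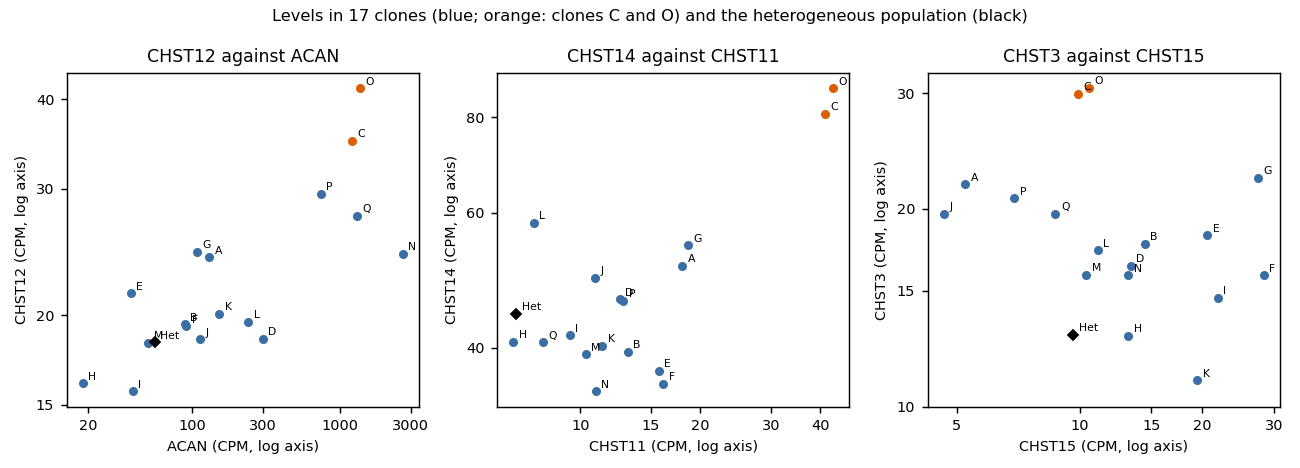
Levels (CPM, log axes) of CHST12 against ACAN, CHST14 against CHST11 and CHST3 against CHST15, each point being a clone named by its letter, with C and O in orange and the heterogeneous population in black. In the left panel the rise extends over the blue points, whereas in the middle panel C and O stand far from the other 15 clones, in which r was 0.053.

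The genes that build, supply and carry the chains were followed by list. On ACAN, XYLT1 was the 1 called of 6 linker enzymes tested. It is the xylosyltransferase that starts the chain on its core protein, and its slope was 0.24 (standard error 0.05, adjusted p = 0.0107), with 0.18 and an adjusted p of 0.0513 without C and O, and an adjusted p of 0.0599 without M and N. Of 6 genes for sulfate uptake and donor synthesis, PAPSS2, a PAPS synthase, was called, with a slope of 0.26 (standard error 0.07, adjusted p = 0.0299). Without C and O it was 0.060 (adjusted p = 0.336), and leaving out 1 clone at a time gave an adjusted p of 0.0118 to 0.103, above 0.05 without B, C, E, I, M or O. Of 10 other sulfotransferases, the heparan sulfate enzymes HS3ST3A1 (slope 0.71, adjusted p = 0.0112) and HS6ST1 (slope 0.19, adjusted p = 0.0427) were called. The adjusted p of HS6ST1 was above 0.05 without A, B, E, F, G, I, J, K, M, N, P or Q, and reached 0.273 without N. HS3ST3A1 had 0 to 66 reads in a clone, and its highest clones were C and O. The slopes of HS3ST3A1 and HS6ST1 without C and O are not given here. None was called of the 7 polymerases and epimerases, the 8 genes listed for degradation and the 8 listed as core proteins. Versican (VCAN), also listed as a core protein, had 3 reads over all 18 libraries and was not tested. The median slope of the 7 sulfotransferases of chondroitin and dermatan was 0.097, that of all genes tested 0.0075, and without C and O the median of the 7 was 0.0016.

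On CHST15 and in the heterogeneous comparison none of these genes was called by edgeR. On CHST15 the most negative slope of a chain polymerase or epimerase was that of CHPF2, a chondroitin polymerising factor, at -0.30 (standard error 0.07, adjusted p = 0.0877), and the most positive that of the chondroitin synthase CHSY3, at 0.20 (adjusted p = 0.694). Among linker enzymes XYLT2 was lowest at -0.28 (adjusted p = 0.130), and in sulfate supply PAPSS2 at -0.36 (adjusted p = 0.650) and the sulfate transporter SLC26A2 at 0.25 (adjusted p = 0.421) were the ends of the range. The degrading enzymes went from IDUA, an iduronidase, at -0.26 (adjusted p = 0.427) to ARSB, a 4-sulfatase, at 0.14 (adjusted p = 0.596).

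In the heterogeneous population CHSY3 had 17.3 CPM against 24.3 to 95.8 CPM in the clones, and XYLT1 had 59.0 CPM against 96.4 to 437.9 CPM. Both lay below every clone, as did 8.6% of the genes tested, but with differences of -1.60 (standard error 0.73, adjusted p = 0.619) and -1.76 (standard error 0.82, adjusted p = 0.625) neither passed the test. The epimerase DSEL, at 0.95 (standard error 0.45, adjusted p = 0.635), had the most positive difference of its list. CHSY3 and XYLT1 were not the only listed genes outside the range of the clones. CHSY1 (89.0 CPM against 108.1 to 262.4) and the core protein gene CSPG4 (192.5 CPM against 411 to 1092) were also below every clone. So were SLC26A1 and CSPG5, on 7 and 6 reads, while IDUA (141.4 CPM) was just above the highest clone (140.9 CPM). The median difference was -0.34 for the 7 sulfotransferases and -0.033 for all 11878 genes, and without C and O that of the 7 was -0.20.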

How the data were processed

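The deposited values are unnormalised HTSeq counts. The authors aligned single-end reads to bosTau7 with STAR (2.3.0e in the submitters' processing notes) and counted them with HTSeq on RefSeq annotation release 103. The 5 tally lines that name no gene, 19.0% to 27.0% of each file, stayed out of library sizes. Levels are TMM-scaled CPM, logged after adding 0.25. Tests were edgeR's (4.0.16) quasi-likelihood test after filterByExpr, on 17 clones with the log2 level of CHST15, ACAN or another member as covariate, or on the heterogeneous library against the clones, with Benjamini-Hochberg adjustment over all genes tested. The standard errors given for edgeR were back-calculated from the fitted value and its F statistic. DESeq2 (1.42.0), limma voom (3.58.1), other scalings and filters, and leaving out clones were alternatives. Correlations used 100000 permutations, two-sided. The fits of the heterogeneous comparison and of the slope on CHST15 were tried on simulated counts. The spreads, ratios and correlations were not. The members and lists were chosen with earlier results of these data known. Besides the members, the genes named were ACAN, the 5 genes closest to and the 5 most opposed to CHST15 by r, and cell type markers. From the lists of related genes, those called on ACAN were named. In some of these lists, genes at the ends of the slopes on CHST15 or of the differences of the heterogeneous library were named too. Listed genes for which that library lay outside the range of the clones were added. Clones C and O were singled out after their values were seen. All 8 symbols matched the RefSeq gene table.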

Additional observations from a re-analysis of the deposited data

How the results depend on the processing

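No paired analysis was possible because the clones carry no shared replicate numbers with the single heterogeneous library. Alternatives with clones C and O left out, or summed and counted as 1 library, were chosen after seeing the data. Of 980 recomputed values, 919 were labelled as unchanged, and most of the 980 came from leaving out 1 clone. For a tested value the label required the same sign and call, and for a count of calls a change within a set factor. Spreads and ratios have no call and had a wide margin, which for the spread of a member was its own size. The 919 is therefore no measure of stability for those values. In the heterogeneous comparison 89 genes were called by DESeq2 and 226 by limma voom, with 0 members in both, and without 1 clone 141 to 160. On CHST15, 2 genes were called with library totals, 9 without clones M and N, 2 with C and O as 1, 281 by DESeq2, 12 with all 18 libraries and 0 to 25 without 1 clone (25 without A, 14 without G, 10 without N, 0 without C, E, F, H, I, J, K, P or Q), with 0 members throughout. On ACAN, 175 genes were called without M and N, 1048 by DESeq2 and 256 to 1166 without 1 clone (256 without N, 1166 without H, 360 without E, 386 without P, 362 without Q), with CHST12 the 1 member except with library totals, where 2 were (CHST3 at 0.13, adjusted p = 0.0481). In the fits on members, leaving out C and O gave 0 genes on CHST11, 33 on CHST12, 0 on CHST3 and 1167 on CHST14, and 0 members on each; with C and O as 1 these were 47, 64, 35 and 2258 genes, with 0 members on CHST11, 2 on CHST12, 0 on CHST3 and 3 on CHST14. Library totals gave 1796 genes on CHST12 (4 members, UST gained), 2220 on CHST3 and 2 on UST. The median log2 ratio of 6-O to 4-O reads was -0.98 by sums.

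Values that changed sign were uncalled: in the heterogeneous comparison CHST13 was at 0.17 by limma voom (-0.18 to 0.039 without 1 clone) and CHST14 at 0.028 without C and O; the slope of CHST11 on CHST15 was 0.11 without C and O, 0.0069 with them as 1 and -0.21 to 0.016 without 1 clone; its slope on ACAN was -0.024 without C and O. The correlation of CHST11 with CHST15 was 0.10 by Spearman's rho and 0.21 without C and O, and with ACAN -0.045 without C and O. The cause was not tested. Depth limits CHST13 (2 to 26 reads) and UST (25 to 81 reads).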
